A study of Mus musculus with 6 samples.

Results

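The genes described are Sh2d1a, which encodes the adaptor protein SAP, and 7 genes of the SLAM family of cell-surface receptors: Slamf1, Cd84, Ly9, Slamf6, Slamf7, Cd244a and Cd48. They were chosen by name, as the adaptor and the receptor family it serves, with earlier results of these data known. All 8 were measured, by 14 single-gene probe sets, among 18193 genes and 45037 probe sets on the array. Where a gene had several probe sets, the one with the highest mean over the arrays stands for it.

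SAP is a small protein made almost entirely of an SH2 domain. It binds phosphorylated tyrosine motifs in the cytoplasmic tails of SLAM-family receptors, recruits the kinase Fyn to them and keeps inhibitory phosphatases away. Most of these receptors bind a copy of themselves on a neighbouring cell, so they act when lymphocytes touch each other, and SAP is needed for lasting contacts between T cells and B cells and for germinal centres.

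RNA came from mouse CD4 T cells that were either wild-type (WT) or SAP-deficient. Cells of both genotypes carried the OT-II transgenic T cell receptor, which recognises an ovalbumin peptide. Naive cells sorted from spleen and lymph nodes were cultured for 3.5 days with that peptide, with T-depleted splenocytes whose division was blocked by mitomycin C, with IL-6 (100 ng/ml) and IL-21 (50 ng/ml), and with blocking antibodies to TGF-β (20 µg/ml), IL-4 (10 µg/ml), IL-12 and IFN-γ. These conditions are meant to give cells like follicular helper T (Tfh) cells, which help B cells in germinal centres. The labels name neither the age of the mice nor the allele, and do not state that the 3 samples of a genotype were independent animals or cultures. P-values therefore measure the spread between these samples, which may be technical in part. The culture also held splenocytes, and on a bulk array fewer cells of a type and less RNA per cell cannot be told apart. Replicates are numbered 1 to 3 in the order in which the samples are listed, and the labels do not pair them.

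Arrays with the same replicate number resembled each other more than arrays of the same genotype. The deviations from the genotype means, over all probe sets, correlated at 0.521, 0.73 and 0.595 between arrays of equal number and at most at -0.0981 between the other arrays of opposite genotype. The non-coding RNA Xist, made in female cells, had log2 levels of 12.50, 8.21 and 5.81 in WT replicates 1 to 3 and of 12.50, 8.19 and 6.26 in the SAP-deficient ones. The Y chromosome gene Eif2s3y was at 3.54, 9.96 and 9.80 in WT and at 2.91, 9.98 and 9.76 in SAP-deficient replicates. Kdm5d and Uty, also on the Y chromosome, were likewise lowest in replicate 1 of both genotypes. The sex of the cells thus differed between replicate numbers, and its part in differences between them was not tested. For the median gene, 66.9% of the variance over the 6 arrays lay between replicate numbers and 6.36% between genotypes. Each gene is therefore given on every array and by replicate number as well as by genotype. The defining T cell genes were bright: Cd3e had levels from 10.38 to 10.96 and Cd4 from 9.44 to 9.87. Of 8 Tfh genes, 5 (Bcl6, Pdcd1, Icos, Il21 and Tox2) had mean levels above the median gene (6.58), while 3 lay below it: Ascl2, Maf and the follicle-homing receptor gene Cxcr5, the last at 5.01 to 6.12.

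The adaptor transcript itself separated the genotypes on every array. Sh2d1a (Entrez Gene 20400, X chromosome) had log2 levels of 9.50, 8.52 and 9.39 in WT replicates 1 to 3 and of 5.47, 4.10 and 4.92 in SAP-deficient replicates 1 to 3. Every SAP-deficient array lay below every WT array, which was so for 2.94% of all genes. The mean was 9.14 ± 0.53 in WT cells and 4.83 ± 0.69 in SAP-deficient cells (SD, n = 3 arrays each), a 19.8-fold lower signal. In WT cells Sh2d1a was brighter than 75.2% of genes, and in SAP-deficient cells brighter than 25.2%. Brightness also depends on the probes of each gene, so such percentiles do not rank genes by transcript number.

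The difference, SAP-deficient minus WT, was -4.31 ± 0.37 (log2, SE; 95% interval -5.17 to -3.45). It was -4.03, -4.42 and -4.47 at replicate numbers 1, 2 and 3. Limma's adjusted p was 0.0501 over all genes, just above the threshold of 0.05, and 0.124 over all probe sets; in this comparison 0 of 18193 genes were called (0%) and 239 had an unadjusted p under 0.05 (1.31%). With the replicate number as a block the adjusted p was 1.99e-07 over genes, the sole gene called (0.0055%) and the sole probe set (0.00222%), and without WT replicate 2 it was 0.0273 (limma). Signals this dim are compressed by the array processing, so the fold may be understated, and the position of the probe set relative to the disrupted sequence is unknown.

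Within each genotype the Sh2d1a signal was lowest in replicate 2. The difference from the mean over all arrays was 0.50 for replicate 1, -0.67 for replicate 2 and 0.17 for replicate 3, averaged over both genotypes. The spread between replicate numbers was small beside the genotype difference, which held 94.8% of the variance of Sh2d1a.

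**Figure D1:**
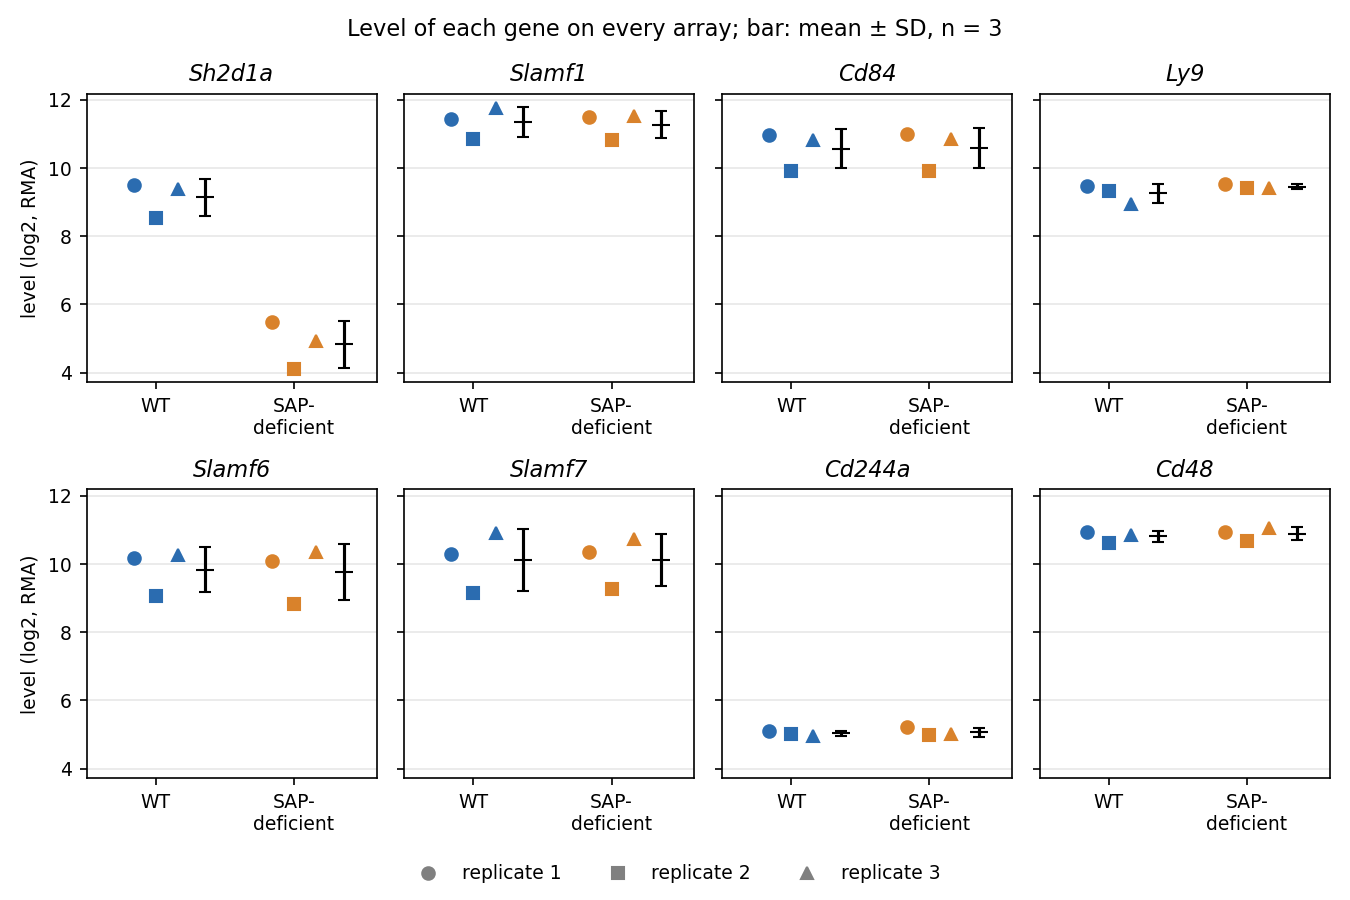
Log2 level (vertical axis) of Sh2d1a and the 7 SLAM-family genes on all 6 arrays, with the symbol giving the replicate number and the bar the mean ± SD of 3 arrays. Sh2d1a is separated by genotype (8.52 or more in WT, 5.47 or less in SAP-deficient cells), whereas for the 7 receptor genes the genotypes overlap and replicate 2 is the lowest array for Slamf1, Cd84, Slamf6, Slamf7 and Cd48.

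None of the 7 SLAM-family receptor genes differed detectably between the genotypes. In SAP-deficient cells 5 of them lay slightly above and 2 slightly below the WT mean, with differences from -0.08 to 0.20 and a median of 0.01 (log2), against a median of 0.008 over all genes. Limma called 0 of the 7, and 0 had an unadjusted p under 0.05, against 1.31% of all genes. The genotypes overlapped for all 7, whereas 5.32% of all genes had groups that did not overlap. An exact permutation test of a single gene with 3 arrays against 3 could not go below a two-sided p of 0.10, so the model fitted across all probe sets was used.

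Slamf1 encodes CD150, a self-binding receptor whose tail binds SAP. Its level was 11.43, 10.87 and 11.76 in WT replicates 1 to 3 and 11.49, 10.81 and 11.52 in SAP-deficient replicates 1 to 3. The genotypes interleaved, and replicate 2 was low in both. The difference was -0.08 ± 0.25 (SE; 95% interval -0.67 to 0.51; limma adjusted p = 1.00).

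Cd84 encodes a self-binding receptor of T and B cells that takes part in their adhesion. It was at 10.98, 9.91 and 10.82 in WT cells and at 10.99, 9.90 and 10.86 in SAP-deficient cells, in the order of replicates 1 to 3. The arrays of equal number nearly coincided, with differences of 0.01, -0.006 and 0.04, the smallest of the 8 genes at every replicate number. The genotype difference was 0.01 ± 0.35 (SE; 95% interval -0.79 to 0.82).

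Ly9 encodes CD229, another self-binding receptor whose tail binds SAP. It was at 9.49, 9.32 and 8.96 in WT cells and at 9.54, 9.42 and 9.41 in SAP-deficient cells. It was higher in the SAP-deficient array at all 3 replicate numbers, by 0.06, 0.10 and 0.46, and the third value was set by WT replicate 3, the lowest of the 6 arrays. Of all genes, 28.8% had the same sign at all 3 replicate numbers. The difference of 0.20 ± 0.15 (SE; 95% interval -0.14 to 0.55) was the largest of the 7 and did not pass the test (limma unadjusted p = 0.214, adjusted p = 1.00). With the replicate number as a block its unadjusted p was 0.0432 and its adjusted p 0.814 (limma); in that fit 6.10% of all genes had an unadjusted p under 0.05. Without WT replicate 3 the difference was 0.05.

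Slamf6 encodes Ly108, a self-binding receptor that in mice exists in several splice forms and works with SAP in contacts between T and B cells. Its level was 10.17, 9.07 and 10.26 in WT cells and 10.10, 8.82 and 10.36 in SAP-deficient cells. Replicate 2 stood more than 1 log2 unit below the other replicates in both genotypes. The genotype difference was -0.07 ± 0.44 (SE; 95% interval -1.09 to 0.94), and at replicate numbers 1 to 3 it was -0.07, -0.25 and 0.10.

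Slamf7 encodes CRACC, a self-binding receptor that signals mainly through the SAP-related adaptor EAT-2 in natural killer cells. It was at 10.30, 9.14 and 10.91 in WT cells and at 10.35, 9.27 and 10.73 in SAP-deficient cells. Its means, 10.12 in both genotypes, were the closest of the 7, yet its WT arrays spread the most, over 1.77 log2 units. Among SAP-deficient arrays Slamf6 spread more (SD 0.83, against 0.76 for Slamf7). The difference was below 0.001, with a 95% interval of -1.12 to 1.12.

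Cd244a encodes 2B4, the receptor for CD48, best known from natural killer cells and CD8 T cells. It was dim on every array, at 5.11, 5.02 and 4.96 in WT cells and at 5.22, 4.98 and 5.00 in SAP-deficient cells. The difference was 0.04 ± 0.11 (SE; 95% interval -0.22 to 0.29). At a mean level of 5.05 it was dimmer than most genes, at the 29.0th percentile, so a true difference could be compressed here. Ncr1, a natural killer cell gene expected to be silent in T cells, lay at 4.48 to 4.69.

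Cd48 encodes the ligand of 2B4 and, in mice, of CD2. It is held in the membrane by a lipid anchor and has no tail that could bind SAP. It was at 10.94, 10.63 and 10.87 in WT cells and at 10.95, 10.67 and 11.06 in SAP-deficient cells. It was higher in the SAP-deficient array at all 3 replicate numbers, by 0.02, 0.04 and 0.20. The difference was 0.08 ± 0.13 (SE; 95% interval -0.21 to 0.38; limma adjusted p = 1.00).

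The intervals state which differences in signal these arrays can exclude. For 5 of the 7 receptor genes the 95% interval of the genotype fit lay within 1 log2 unit, a 2-fold difference, on each side of 0. For Slamf6 and Slamf7 it did not. Cd244a is among the 5, but at a mean level of 5.05 its differences may be compressed. Its narrow interval therefore cannot exclude a 2-fold difference in transcript. With the replicate number as a block the intervals of all 7 lay between -0.24 and 0.40. Replicate number held 84.2% (Cd244a) to 99.9% (Cd84) of the variance of these genes, except Ly9 at 49.8%. The blocked interval of Ly9, 0.008 to 0.40, had the highest upper bound. For Cd244a the block hardly changed the SE, from 0.11 to 0.10.

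**Figure D2:**
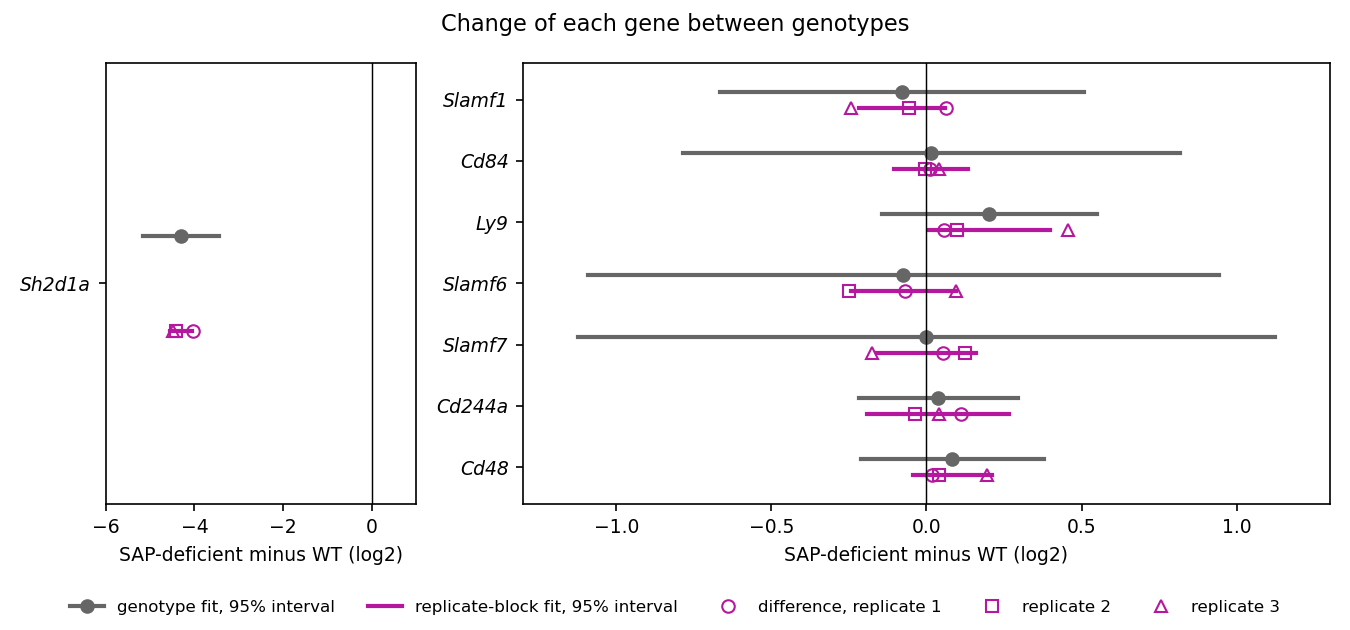
SAP-deficient minus WT (log2, horizontal axis) for Sh2d1a (left) and the 7 SLAM-family genes (right, on an expanded scale). Grey bars are 95% intervals of the genotype fit, coloured bars those of the fit with the replicate number as a block, and open symbols the differences at each replicate number; Sh2d1a lies at -4.31 and the receptor genes between -0.08 and 0.20.

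None of the other probe sets of these genes passed the test over all probe sets (limma called 0%). Slamf1 had 3 probe sets, with differences of -0.08, -0.15 and -0.17, and in each the third replicate showed the lowest difference, at -0.24, -0.34 and -0.40. The 3 probe sets of Slamf6 were at -0.07, -0.05 and -0.10. The second of them spread more widely than the probe set that stands for the gene, with WT levels of 10.21, 8.25 and 10.35.

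Cd84 had a second, dimmer probe set at -0.20 ± 0.25 (SE), with differences of -0.34, 0.11 and -0.38 by replicate number, while the brighter one was at 0.01. The second Cd244a probe set was at 5.17, 5.08 and 5.17 in WT cells and at 4.88, 4.79 and 4.99 in SAP-deficient cells. Every SAP-deficient array lay below every WT array for this probe set, which was true of 5.7% of all probe sets in one direction or the other. Its difference was -0.25 ± 0.10 (SE), with a limma unadjusted p of 0.0386 (1.64% of all probe sets had one under 0.05) and an adjusted p of 1.00. The brighter Cd244a probe set did not share this direction, at 0.04 with overlapping genotypes.

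**Figure D3:**
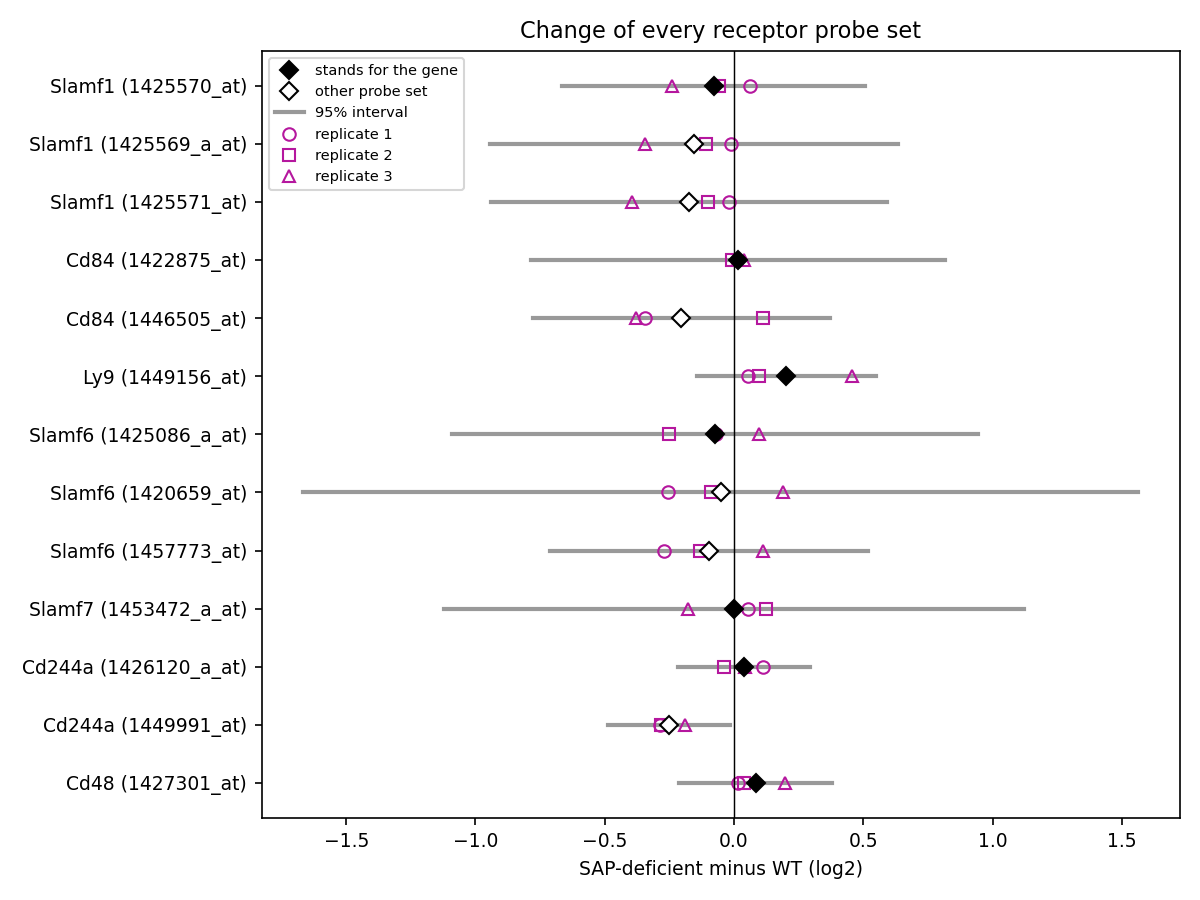
SAP-deficient minus WT (log2, horizontal axis) for all 13 receptor probe sets, with 95% intervals of the genotype fit and the difference at each replicate number as open symbols. Filled diamonds stand for the gene; the interval of the dimmer Cd244a probe set is the sole one that does not reach 0 (-0.49 to -0.02).

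Across replicate numbers, in contrast, a set of the receptor genes varied together and by more than any genotype difference among them. Both replicate 2 arrays lay below the other 4 for 5 of the 7 genes, Slamf1, Cd84, Slamf6, Slamf7 and Cd48, against 17.6% of all genes. The pattern was not particular to the receptors. Cd2 was at 12.10 in both replicate 2 arrays and at 12.44 or more in the others. Fyn, Icos and the T cell markers Cd3e, Cd3g and Cd247 shared the pattern too. Of the other T cell markers, Cd4, Cd5 and Cd28 did not, and Lat and Trat1 were highest in replicate 2 of both genotypes. Averaged over genotypes, Slamf7 was 1.62 log2 units higher in replicate 3 than in replicate 2 (3.07-fold), Slamf6 1.37 (2.58-fold), Cd84 0.94 (1.92-fold), Slamf1 0.80 (1.74-fold) and Cd48 0.31 (1.24-fold). Replicate number held 95% or more of the variance of 4 of the 7 genes, from 95.6% for Slamf1 to 99.9% for Cd84, and 10.7% of all genes reached that share. These counts describe the 6 arrays; they were not tested.

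The probe sets that stand for Ly9 and Cd244a did not share this pattern. Ly9 was 0.19 lower in replicate 3 than in replicate 2, and Cd244a differed by -0.02. Cd244a is dim, where differences are compressed. Its second probe set was lowest in replicate 2 of each genotype, at 5.08 in WT and 4.79 in SAP-deficient cells. Whether Cd244a departs from the pattern is therefore uncertain. Over the 6 arrays, Pearson's r was 0.819 to 0.983 in the 10 pairings of Slamf1, Cd84, Slamf6, Slamf7 and Cd48, while those of Ly9 with these 5 ran from -0.341 (Slamf1) to 0.18 (Cd48). Those of Cd244a with the same 5 ran from 0.0952 (Slamf7) to 0.477 (Cd84), and Ly9 and Cd244a correlated at 0.672. The points are the same 6 arrays throughout and share their replicate structure, so these values describe that structure.

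**Figure D4:**
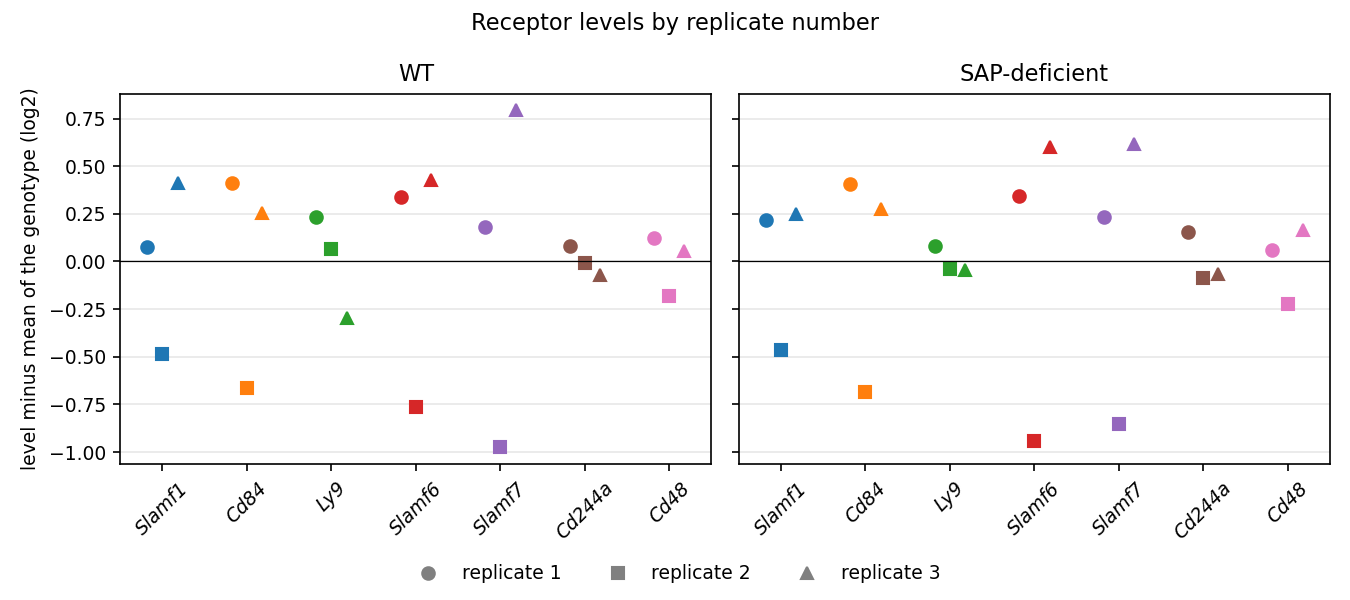
Level of each receptor gene minus the mean of its genotype (log2, vertical axis) by replicate number, for WT (left) and SAP-deficient arrays (right). Slamf1, Cd84, Slamf6, Slamf7 and Cd48 are lowest in replicate 2 in both panels, at -0.98 for Slamf7 in WT cells; Ly9 is lowest in replicate 3 in both, and Cd244a in replicate 3 in WT and replicate 2 in SAP-deficient cells.

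Markers of other cells also differed between replicate numbers. In WT cells the summed levels of the B cell, myeloid and MHC class II markers were lowest in replicate 2. In SAP-deficient cells the myeloid sum was lowest in replicate 2 and the others in replicate 3. Such sums follow the brightest markers, and single markers differed. In WT cells Cd79a, Cd79b and Ebf1 were lowest in replicate 2. Ms4a1, Cd22, Blk, H2-Aa, Cd74 and Csf1r were lowest in replicate 3, and Pax5 and Cr2 in replicate 1. The summed level of the 8 measured B cell markers was 9.24, 8.81 and 8.99 in WT replicates 1 to 3 and 8.92, 8.75 and 8.64 in SAP-deficient replicates 1 to 3 (log2 of the summed signals). That of 8 myeloid markers was 9.61, 9.19 and 9.47 in WT and 9.72, 9.09 and 9.36 in SAP-deficient cells, and that of 5 MHC class II genes was 11.69, 11.35 and 11.49 and then 11.66, 11.28 and 11.15. The 8 T cell markers summed to between 14.32 and 14.56 on all arrays, but single markers moved in opposite directions. Cd3g was at 11.76, 11.21 and 11.76 in WT and at 11.81, 11.38 and 11.72 in SAP-deficient replicates 1 to 3. Trat1 was at 8.93, 9.84 and 9.08 and then at 8.63, 9.62 and 8.85. None of the listed B cell or myeloid markers was at 0, since these values carry a background, but 7 of the 8 B cell markers had mean levels below the median gene, Ms4a1 at 5.33 among them. The part of these cells in the receptor pattern was not tested.

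The genes that carry the receptors lie side by side. Among the protein-coding entries of the RefSeq gene table Cd244a, Ly9, Slamf7 and Cd48 follow one another on chromosome 1, and Slamf1, Cd84 and Slamf6 follow after 1 further entry, Tma7-ps. Sh2d1a is on the X chromosome. Cd244a and Ly9, whose representing probe sets did not vary with the others, are neighbours and come first in this order. The genes that varied together, from Slamf7 to Slamf6, follow them. Slamf7, which varied most, is the neighbour of Ly9. The part of position in the pattern was not tested.

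The start-site regions of 6 of the 8 genes are in the RefSeq promoter table (build GRCm38.p6, 250 bases before to 50 after the start). They were searched on both strands for the AP-1 motif TGANTCA, the STAT motif TTCNNNGAA and the NFAT core GGAAA, letters bound by factors that act downstream of the T cell receptor and of IL-6 and IL-21. The motifs do not overlap in these windows. Of 32851 promoters of this length, 7.81% held the AP-1 motif, 8.3% the STAT motif and 61.3% the NFAT core. The AP-1 motif was found in Slamf7, Cd84 and Cd244a, the STAT motif in none of the 6, and the NFAT core in all but Slamf6. Of the 5 genes that varied together, Slamf7 and Cd84 held the AP-1 motif and Slamf1, Slamf6 and Cd48 did not, and the dim gene Cd244a held it too, so its presence did not follow the pattern. A match describes letters in this window and is not evidence of binding. The 4 windows below show genes with the AP-1 motif (in capitals), and Slamf6 without it.
Slamf7 (chr1:171648950-171649249, minus strand): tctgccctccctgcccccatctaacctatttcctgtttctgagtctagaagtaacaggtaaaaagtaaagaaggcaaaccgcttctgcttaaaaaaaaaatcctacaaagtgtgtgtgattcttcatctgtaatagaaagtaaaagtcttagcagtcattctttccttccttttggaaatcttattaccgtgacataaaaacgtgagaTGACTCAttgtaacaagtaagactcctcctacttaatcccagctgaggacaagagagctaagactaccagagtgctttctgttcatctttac
Cd84 (chr1:171839447-171839746, plus strand): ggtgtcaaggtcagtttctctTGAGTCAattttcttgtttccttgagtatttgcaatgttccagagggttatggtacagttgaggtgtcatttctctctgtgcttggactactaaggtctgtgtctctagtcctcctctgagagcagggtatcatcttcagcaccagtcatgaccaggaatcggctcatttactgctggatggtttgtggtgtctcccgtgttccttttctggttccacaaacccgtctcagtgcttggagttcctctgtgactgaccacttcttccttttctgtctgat
Cd244a (chr1:171558943-171559242, plus strand): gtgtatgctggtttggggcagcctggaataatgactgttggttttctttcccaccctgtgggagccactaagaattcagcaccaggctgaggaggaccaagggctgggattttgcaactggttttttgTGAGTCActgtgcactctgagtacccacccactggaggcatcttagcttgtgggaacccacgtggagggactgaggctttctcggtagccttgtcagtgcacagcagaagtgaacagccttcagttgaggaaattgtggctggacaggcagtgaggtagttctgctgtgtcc
Slamf6 (chr1:171917212-171917511, plus strand): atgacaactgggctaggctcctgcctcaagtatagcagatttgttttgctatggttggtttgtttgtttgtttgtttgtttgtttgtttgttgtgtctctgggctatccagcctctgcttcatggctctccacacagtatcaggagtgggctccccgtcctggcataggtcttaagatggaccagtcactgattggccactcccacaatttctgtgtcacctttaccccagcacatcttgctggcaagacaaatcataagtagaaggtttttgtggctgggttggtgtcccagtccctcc

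For each gene the 3 genes above the median level with the most similar levels over the 6 arrays, by Pearson's r, were listed. Sh2d1a was most like Zdhhc14 (r = 0.974; -0.26 between genotypes), Lztfl1 (0.967; -0.11) and Rnf216 (0.954; -0.18), which differed far less than Sh2d1a itself. Slamf7 was most like the nuclear receptor gene Nr4a3 (r = 1.00), the oxygen-sensing hydroxylase gene Egln3 (0.999) and the kinase gene Fes (0.998). Slamf6 was most like the cytokine gene Il3 (0.998), the kinase gene Prkch (0.997) and Utrn (0.996). For Cd84 the nearest were Strap, Ext1 and Unc13a (0.997 to 0.998), and for Slamf1 they were Samhd1, Tpd52l2 and Uqcc1 (0.996 to 0.997). Those of Ly9 were Utp23, Exosc8 and Anapc15 (0.994 to 0.998), those of Cd48 were Ndufv3, Pcsk4 and Ctdp1 (0.992 to 0.994), and those of Cd244a were Dgkd, Etfb and Pfdn5 (0.993 to 0.997). With 6 arrays and all genes above the median level, out of 18193, to choose from, these values describe the arrays and carry no test.

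Other genes of the pathway did not differ detectably either. Of 23 listed genes 19 were analysed. In SAP-deficient cells 13 of them lay above and 6 below the WT mean, with a median difference of 0.04. Limma called 0 of them, and 0 had an unadjusted p under 0.05, against 1.31% of all genes; the genotypes overlapped for all 19. Sh2d1b1, Sh2d1b2, Lck and Nfkb1 were not analysed here.

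Fyn, the kinase that SAP recruits, was at 11.96, 11.70 and 11.91 in WT cells and at 11.89, 11.67 and 12.02 in SAP-deficient cells, a difference of 0.002 ± 0.11 (SE). Cd2, a receptor of T cells that binds CD48, was at 12.44, 12.10 and 12.49 and then at 12.57, 12.10 and 12.47, a difference of 0.04 ± 0.14. Slamf8 and Slamf9, members of the family whose short tails lack the SAP-binding motif, were dim, at 3.89 to 4.12 and at 5.88 to 6.07, and differed by -0.01 ± 0.10 and -0.05 ± 0.11.

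Of the 13 genes that lay above the WT mean, 9 had their highest difference at replicate number 3 and 4 at replicate number 1 (Cd2, Nck1, Ptpn11 and Rasa1). For Ptpn6, Csk, Fyn and Arhgef7 the positive mean came from replicate number 3 alone. The count therefore partly restates the choice of genes above the WT mean, and the share over all genes is not given here. Examples of both kinds were chosen after their values were seen. Inpp5d, encoding the phosphatase SHIP-1, differed by -0.02, 0.16 and 0.41 at replicate numbers 1 to 3, a mean of 0.18 ± 0.28 (SE). Ptpn6, encoding the phosphatase SHP-1, differed by -0.07, -0.09 and 0.42, and the exchange factor gene Vav1 by -0.004, 0.003 and 0.38. Ptpn11, encoding the phosphatase SHP-2, differed by 0.11, 0.04 and 0.03, and the adaptor gene Nck1 by 0.09, 0.05 and 0.04. In replicate 3 the mean over MHC class II genes was at -0.50 and that over B cell genes at -0.34 (SAP-deficient minus WT). Of the receptors, 5 were higher there (Ly9 by 0.46, Cd48 by 0.20, Slamf6 by 0.10, Cd84 by 0.04 and Cd244a by 0.04), while Slamf1 differed by -0.24 and Slamf7 by -0.18. The part of other cells in these values was not tested.

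**Figure D5:**
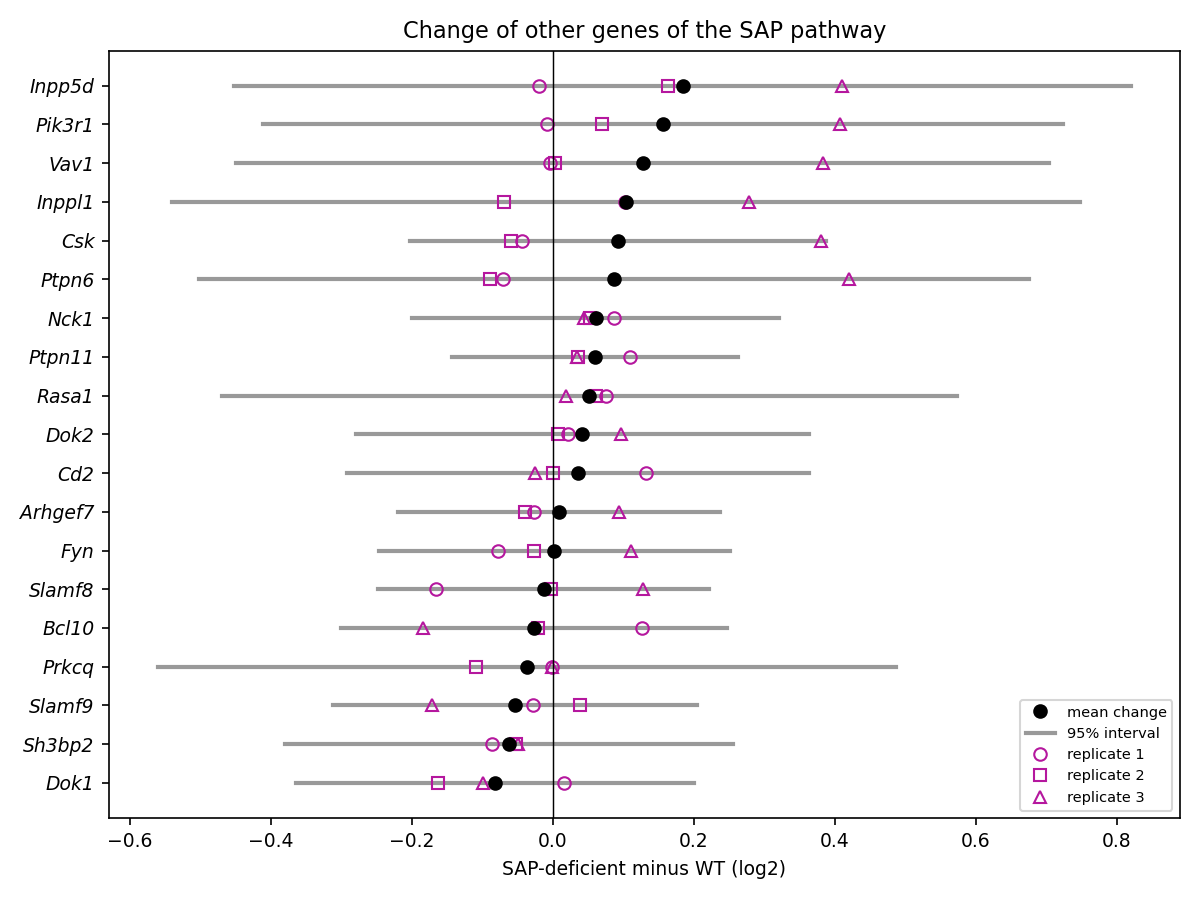
SAP-deficient minus WT (log2, horizontal axis) for the 19 other genes of the SAP pathway, with 95% intervals of the genotype fit and the difference at each replicate number as open symbols. All intervals include 0, and Inpp5d, Pik3r1, Vav1, Csk and Ptpn6 lie highest at replicate 3, at 0.38 to 0.42.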

How the data were processed

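RNA from 3 WT and 3 SAP-deficient samples was hybridised to 6 Affymetrix mouse arrays, 500 ng per labelling per the labels. The deposited values are log2 levels of 45101 probe sets. The authors made them with Affymetrix Expression Console and RMA, per the submitters' processing notes. RMA corrects background, equalises array distributions and compresses differences between dim signals. Versions and genome build: not given in the sources used here. Array medians ran from 5.73 to 5.77, and no detection calls or counts were used, so the number of arrays limits precision.

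After 64 control probe sets were left out, 45037 were fitted with limma 3.58.1 (R 4.3.3; lmFit on genotype, eBayes with an intensity trend), tested on simulated data. The platform annotation gave 1 gene to 34945 of them, several to 932 and none to 9160; symbols of 34741 were updated through RefSeq. P-values were adjusted by Benjamini-Hochberg over 18193 genes and separately over probe sets, with a threshold of 0.05. Alternatives were other variance settings, a filter on dim probe sets, second normalizations, array weights, other probe sets per gene, each array left out and the replicate number as a block. The numbers follow the order of listing; the pairing rests on likeness of the arrays (deviations correlated at 0.521 to 0.73), not on the labels. Genes named were the 8 genes and the 3 most alike of each. Of a list of 23 pathway genes, those with an unadjusted p under 0.05 were to be named, with Fyn, Cd2, Slamf8 and Slamf9. Inpp5d, Ptpn6, Vav1, Pik3r1, Csk, Ptpn11, Nck1, Rasa1 and Arhgef7 were named after their values were seen. The genes and lists were chosen with earlier results of these data known. Proteins of the members were not analysed here.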

Additional observations from a re-analysis of the deposited data

How the results depend on the processing

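Sh2d1a was lower in SAP-deficient cells under every alternative run, from -4.63 to -3.94 (log2), and the threshold was crossed in some of them. It was the 1 gene called with robust variance (-4.31, limma adjusted p = 0.0406), without _x_at and _s_at probe sets (-4.31, 0.0444) and with the replicate block (-4.31, 1.99e-07); there 1 probe set was called too. Leaving out each array gave 0 or 1 called genes and adjusted p-values for Sh2d1a from 0.0273 (without WT replicate 2) to 0.529 (without WT replicate 3). None of the 7 receptor genes and 19 pathway genes was called in the 15 alternatives, except that Cd244a and Slamf8 could not be tested among probe sets above the median. The median difference of the receptors was 0.11 with array weights, -0.074 when probe sets were averaged per gene, and ran from -0.32 to 0.22 when single arrays were left out, because such removals unbalance the replicate numbers; that of the pathway genes then ran from -0.029 to 0.060. Directions of the receptor genes were not stable. Cd84 was at -0.0022 and Slamf7 at -0.020 after a second quantile normalization, Slamf1 at 0.051 and Slamf6 at 0.086 with array weights, and Cd84 at -0.095 and Cd244a at -0.11 with averaged probe sets. With single arrays left out Slamf1 ran from -0.32 to 0.15, Cd84 from -0.32 to 0.36, Slamf6 from -0.46 to 0.40, Slamf7 from -0.49 to 0.43, Cd244a from -0.038 to 0.081 and Cd48 from -0.006 to 0.20. Ly9 kept its direction in all 15 alternatives, from 0.05 to 0.32. The block changed no call other than that of Sh2d1a. Cd244a is too dim on these arrays for a small difference to be read.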
